A study of Gallus gallus with 6 samples.

Results

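The genes described here encode integrins, laminins and the glycoproteins that join them in basement membranes and the matrix around cells. Members were all probe sets of the chicken array whose single gene symbol in the platform annotation named an integrin alpha or beta chain, a laminin chain, a nidogen, perlecan (HSPG2), agrin (AGRN), fibronectin (FN1), vitronectin (VTN), a thrombospondin, a fibrillin or a fibulin. Each gene was represented by its brightest probe set, the one with the highest mean over all arrays, and this gave 43 of the 13051 genes measured. They were 10 integrin alpha chains, 6 integrin beta chains, 11 laminin chains, 4 linkers of the basement membrane, 5 adhesive glycoproteins and 7 fibrillins and fibulins. The RNA came from chick (Gallus gallus) forelimb buds in which a bead carrying the growth factor FGF2, or a control bead carrying only buffered saline (PBS), was placed in the posterior mesoderm at Hamburger-Hamilton stage 23, about 500 µm from the distal tip. Tissue surrounding the bead was taken 24 h later, at stage 25, with 3 FGF2 arrays and 3 PBS arrays, and the RNA of an array was a pool of several embryos. The comparison asked which genes respond to prolonged FGF signaling, and the series describes the FGF2-treated tissue as expressing SHH. The dissected tissue is a mixture of cell types, so fewer cells of a type and less RNA per cell cannot be told apart in any value below.

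Integrins are receptors made of an alpha and a beta chain that span the cell membrane and hold the cell to its surroundings. Laminins are cross-shaped trimers of an alpha, a beta and a gamma chain that polymerize at the cell surface, where nidogens, perlecan and agrin tie them to the type IV collagen network. In the limb bud, basement membranes underlie the ectoderm and surround vessels, nerves and muscle, while fibronectin, fibrillins and fibulins fill the mesenchyme between them.

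Values are on a log2 scale, on which a difference of 1 is a 2-fold change, and each log2 fold change is FGF2 minus PBS. Probe sets whose names do not mark them as chicken transcripts served as a gauge of background, and the 95th percentile of their means was 3.57. Of the 43 members 41 had a mean above it, and ITGB6 and LAMB3 did not. All 10 measured genes of a limb mesenchyme list, PRRX1 and TBX5 among them, also lay above it. Levels of different genes are not compared, since probe sets differ in brightness for the same amount of RNA.

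No member passed an adjusted p of 0.05 in limma (Benjamini-Hochberg over all 38439 probe sets tested), where 0.00766% of genes did. The smallest adjusted p among members was 0.250, for ITGA6. At an unadjusted p under 0.05 there were 12 members, 27.9% of them, against 12.3% of all genes. These were 6 higher around FGF2 beads (VTN, ITGB2, FBLN7, LAMA3, ITGA1 and ITGB3) and 6 lower (FBLN5, LAMB4, ITGA6, AGRN, FBLN2 and ITGA2). In the same fit 7.76% of all genes were higher and 4.58% lower. When the arrays were quantile normalized again, the shares of all genes were 5.49% and 5.56%, and the member counts of that fit are not given here. In 12 members all arrays of a group lay on the same side of all arrays of the other group, 5 higher and 7 lower, against 16% of all genes (9.12% higher and 6.83% lower). Over all 43 members 15 were higher and 28 lower in FGF2 tissue (65.1% lower, against 54.5% of all genes), with a median log2 fold change of -0.10, where the median of all genes was -0.01. The count at an unadjusted p under 0.05 depended on FGF2 replicate 2, without which it was 4 members (3 higher and 1 lower) and 7.18% of all genes. ITGA6, VTN and FBLN7 passed that threshold with each of the 6 arrays left out in turn. With 3 arrays against 3 an exact two-sided permutation test cannot give a p under 0.1, so limma's fit across all probe sets was the test used.

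**Figure D1:**
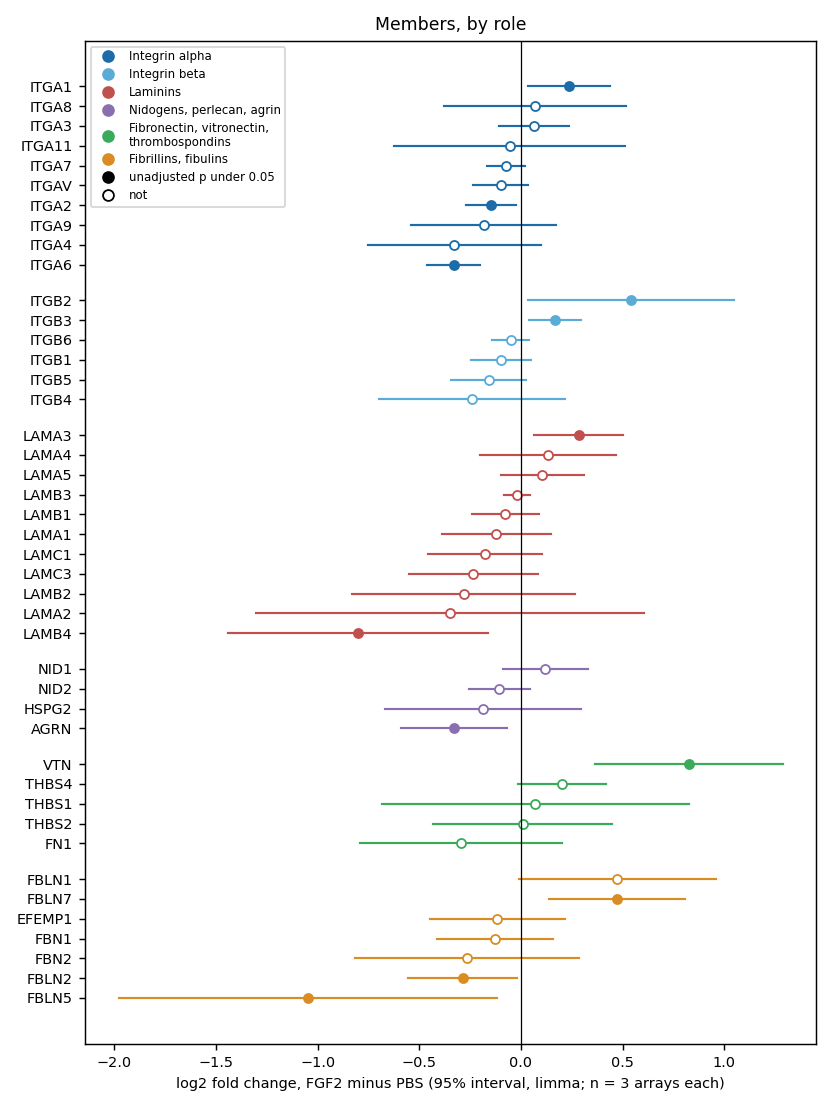
Log2 fold change, FGF2 minus PBS, of each of the 43 members, grouped by role, with the 95% interval of limma (3 arrays per group). Filled points mark the 12 members with an unadjusted p under 0.05, which run from -1.05 for FBLN5 to 0.83 for VTN, and open points the other 31.

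The integrin alpha chains set which ligand an integrin binds. Of the 10 measured, 1 was higher and 2 were lower at an unadjusted p under 0.05 in limma (10% and 20%, against 7.76% and 4.58% of all genes). The median log2 fold change was -0.09. ITGA6, the alpha chain of laminin receptors in epithelia and nerve, had values of 10.31, 10.38 and 10.48 on the FGF2 arrays, against 10.75, 10.74 and 10.67 on the PBS arrays. All FGF2 arrays lay below all PBS arrays, and the gap between the groups was wider than the range within either of them. ITGA6 was 1.26-fold lower (log2 fold change -0.33 ± 0.0515 SE, 95% interval -0.46 to -0.20, adjusted p = 0.250 in limma). Its second probe set also lay lower on every FGF2 array, with a log2 fold change of -0.18.

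The receptors for collagen did not move together. ITGA1, which with beta 1 binds collagen in mesenchyme and vessels, gave 9.05, 9.03 and 9.00 on the FGF2 arrays, against 8.94, 8.63 and 8.80 on the PBS arrays. The FGF2 arrays were tightly grouped and all higher, by 0.24 ± 0.0801 (SE; adjusted p = 0.514). ITGA2, another collagen-binding chain, gave 7.65, 7.54 and 7.58 on the FGF2 arrays, against 7.75, 7.80 and 7.66 on the PBS arrays. Here all FGF2 arrays were lower, although FGF2 replicate 1 and PBS replicate 3 nearly met, and the log2 fold change was -0.15 ± 0.0488 (SE; adjusted p = 0.503). In the chicken reference annotation ITGA1 and ITGA2 lie close together with 1 protein-coding gene between them. ITGA11, a collagen receptor chain of fibroblasts, had a log2 fold change of -0.06 with a 95% interval of -0.63 to 0.51, and FGF2 replicate 1 (6.61) stood below the other arrays (7.04 to 7.38). The fit without that array turned the sign to 0.20. Another probe set of ITGA11 lay lower on every FGF2 array (log2 fold change -0.18 ± 0.0341 SE, adjusted p = 0.309).

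ITGA4, a chain that binds fibronectin and the vascular adhesion molecule VCAM1 and is found on leukocytes and on muscle and neural crest precursors, gave 9.90, 9.38 and 9.85 on the FGF2 arrays, against 9.97, 10.24 and 9.91 on the PBS arrays. The groups did not overlap, but FGF2 replicate 2 and PBS replicate 2 stood furthest apart and the other arrays were close. The log2 fold change was -0.33 ± 0.169 (SE; adjusted p = 0.644), and -0.16 without FGF2 replicate 2. The neural crest genes SOX10 and FOXD3, given with FBLN5, were also lowest on FGF2 replicate 2 and highest on PBS replicate 2. So were the muscle markers PAX7, MYF5 and MYOD1, but no other gene of the 17 measured muscle markers, MYOG and PAX3 among them. The median level of all 17 was taken against the PBS mean of each gene. It was -0.81 on FGF2 replicate 2, the lowest FGF2 array, and -0.19 on PBS replicate 2, the lowest PBS array. Leukocyte markers, given with ITGB2, went the other way, with all 14 measured genes higher around FGF2 beads and a median log2 fold change of 0.58. The part of neural crest cells, muscle cells or leukocytes in the ITGA4 value was not tested. A second probe set of ITGA4 gave 6.08, 5.96 and 6.13 on the FGF2 arrays, against 6.53, 6.83 and 6.65 on the PBS arrays. That set separated the groups more widely, with a log2 fold change of -0.61 ± 0.0901 (SE; adjusted p = 0.233). The remaining alpha chains had log2 fold changes of -0.18 for ITGA9, the sister chain of ITGA4, -0.10 for the vitronectin receptor chain ITGAV, -0.07 for the muscle laminin receptor chain ITGA7, 0.06 for the epithelial laminin receptor chain ITGA3 and 0.07 for ITGA8, which binds nephronectin. The values of their brightest probe sets overlapped between the groups. The interval of ITGAV ran from -0.24 to 0.04 and that of ITGA3 from -0.11 to 0.24. ITGA8 changed sign without FGF2 replicate 2 (-0.03) and without PBS replicate 2 (-0.09). Its second probe set gave -0.16 and lay lower on every FGF2 array.

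The beta chains link integrins to the cytoskeleton. Of 6 measured, 2 were higher and 0 lower in limma at an unadjusted p under 0.05 (33.3%, against 12.3% of all genes in either direction and 7.76% higher). ITGB3, the partner of alpha V in the vitronectin receptor and of alpha IIb on thrombocytes, gave 10.51, 10.62 and 10.50 on the FGF2 arrays, against 10.31, 10.37 and 10.44 on the PBS arrays. All FGF2 arrays were higher, by a small amount (log2 fold change 0.17 ± 0.0503 SE, 95% interval 0.04 to 0.29, adjusted p = 0.464). The alternative partners of alpha V had negative values, -0.16 ± 0.0734 (SE; adjusted p = 0.609) for ITGB5 and -0.05 for ITGB6, which did not lie above background. ITGB1, which pairs with most of the alpha chains, had a log2 fold change of -0.10 with a 95% interval of -0.25 to 0.05. Its second probe set was lower on all FGF2 arrays, by a similar amount (-0.11 ± 0.0340 SE, adjusted p = 0.473). ITGB4, the partner of alpha 6 in hemidesmosomes, the junctions that anchor epithelia to the basement membrane, gave 6.79, 7.36 and 7.37 on the FGF2 arrays, against 7.52, 7.26 and 7.46 on the PBS arrays. Its log2 fold change of -0.24 ± 0.181 (SE; adjusted p = 0.644) came mostly from FGF2 replicate 1 and was -0.05 without that array. Both of its other probe sets above background were negative, at -0.38 and -0.25.

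ITGB2, the beta chain of leukocyte integrins, was the beta chain with the highest log2 fold change, 0.54 ± 0.200 (SE; adjusted p = 0.544). The FGF2 arrays gave 4.25, 4.23 and 3.67, against 3.27, 3.70 and 3.56 for the PBS arrays. Replicates 1 and 2 of FGF2 stood apart, whereas replicate 3 lay below PBS replicate 2, and the level was low, with a PBS mean of 3.51 that did not lie above background. Markers of macrophages and other leukocytes were also higher in the FGF2 group. Unlike ITGB2, they stood apart on FGF2 replicate 3 too. Their median level there, taken against the PBS mean of each gene, was 0.48, against -0.03 to 0.05 on the PBS arrays. All 14 measured genes of 16 listed were higher around FGF2 beads, 10 of them (71.4%) at an unadjusted p under 0.05 in limma and with groups that did not overlap. Of all genes 7.76% were higher at that threshold and 9.12% were higher without overlap. The summed level of the listed genes was 4266 to 5190 on the FGF2 arrays and 2685 to 2921 on the PBS arrays (sum of values turned back from log2). PTPRC, MARCO, CYBB and TIMD4 of that list were not above background. The complement gene C1QB had a log2 fold change of 1.77 and the receptor CSF1R 0.53. The part of these cells in the ITGB2 value was not tested.

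Of the 11 laminin chains 8 were below 0 (72.7%, against 54.5% of all genes) and the median was -0.12. A single chain in each direction had an unadjusted p under 0.05, 18.2% of the chains against 12.3% of all genes. LAMB4, a further laminin beta chain, showed the largest value, with 7.11, 7.65 and 8.05 on the FGF2 arrays, against 8.62, 8.28 and 8.31 on the PBS arrays. All FGF2 arrays were lower but they spread over a wide range, and FGF2 replicate 1 was furthest from the controls. LAMB4 was 1.74-fold lower (log2 fold change -0.80 ± 0.254 SE, 95% interval -1.44 to -0.16, adjusted p = 0.491). Another probe set of this gene above background gave -0.06 and also lay lower on every FGF2 array. LAMB1, the beta chain of most embryonic laminins and the direct neighbor of LAMB4 in the reference annotation, gave -0.08 with a 95% interval of -0.24 to 0.09.

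LAMA3, the alpha chain of the laminins under skin and other epithelia, was the chain on the higher side. It gave 8.38, 8.45 and 8.34 on the FGF2 arrays, against 8.28, 7.97 and 8.06 on the PBS arrays. The groups did not overlap, PBS replicate 1 lay close under the FGF2 arrays, and the mean was 1.22-fold higher, a log2 fold change of 0.28 ± 0.0869 (SE; adjusted p = 0.473). LAMB3, which forms the same epithelial laminin, was not above background (log2 fold change -0.02). Markers of ectoderm and apical ridge had a median log2 fold change of 0.06, with 9 of 13 measured genes higher and 2 of them at an unadjusted p under 0.05 (SP8 and CLDN1), 15.4% against 12.3% of all genes. Their summed level was 8159 to 9840 on the FGF2 arrays and 7884 to 8242 on the PBS arrays, with FGF8 and ESRP1 not above background. Whether ectoderm in the sample took part in the LAMA3 value was not tested.

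LAMA2, the alpha chain of muscle and nerve basement membranes, varied more between arrays than between groups. It gave 6.28, 6.03 and 7.11 on the FGF2 arrays, against 7.32, 6.32 and 6.83 on the PBS arrays. The groups overlapped and the log2 fold change was -0.35 ± 0.378 (SE; adjusted p = 0.653), with -0.67 when FGF2 replicate 3 was left out and -0.10 when PBS replicate 1 was left out. Skeletal muscle markers were lower in 16 of 17 genes, 6 of them at an unadjusted p under 0.05 (35.3%, against 4.58% of all genes), MYOG and CHRNA1 with the smallest p. Their median level, taken against the PBS mean of each gene, was -0.57, -0.81 and -0.09 on the FGF2 arrays and 0.18, -0.19 and 0.07 on the PBS arrays. Their summed level was 42777 to 61272 on the FGF2 arrays and 56607 to 67058 on the PBS arrays, and all 17 lay above background. FGF2 replicate 3 was thus the highest FGF2 array both for LAMA2 and for muscle markers. The same held for cartilage markers, given below, with median levels of -0.35, -0.50 and -0.05 on the FGF2 arrays. The part of muscle or cartilage in the LAMA2 value was not tested. The other laminin chains gave log2 fold changes of -0.28 for LAMB2, -0.23 for LAMC3, -0.18 for LAMC1, the gamma chain shared by most laminins, -0.12 for LAMA1, 0.11 for LAMA5 and 0.13 for LAMA4, an alpha chain of vessels. All of these overlapped between groups. For the chains of the main embryonic laminins, LAMA5, LAMB1 and LAMC1, the 95% intervals reached at most 0.31 upward and -0.46 downward.

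Nidogens, perlecan and agrin hold the laminin network to other matrix. AGRN, a heparan sulfate proteoglycan also known for clustering acetylcholine receptors at the nerve-muscle synapse, gave 11.05, 10.90 and 11.15 on the FGF2 arrays, against 11.55, 11.29 and 11.26 on the PBS arrays. All FGF2 arrays were lower, with a narrow gap between FGF2 replicate 3 and PBS replicate 3, and AGRN was 1.26-fold lower (log2 fold change -0.33 ± 0.103 SE, adjusted p = 0.482). HSPG2, the large heparan sulfate proteoglycan of basement membranes and cartilage, gave 10.51, 10.10 and 10.52 on the FGF2 arrays, against 10.89, 10.30 and 10.51 on the PBS arrays. Its groups overlapped, PBS replicate 1 was the highest array, and without it the log2 fold change of -0.19 became -0.03. The nidogens pointed apart, with log2 fold changes of 0.12 ± 0.0830 for NID1 and -0.11 ± 0.0591 for NID2 (SE; adjusted p = 0.644 for each). All 4 probe sets of NID1 were positive, at 0.12 to 0.28, and overlapped between the groups in 3 of the 4.

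Among the adhesive glycoproteins, vitronectin had the highest log2 fold change of all 43 members. VTN, a protein of plasma and matrix that binds integrin alpha V, gave 4.15, 4.49 and 4.11 on the FGF2 arrays, against 3.70, 3.10 and 3.47 on the PBS arrays. All FGF2 arrays were higher and VTN was 1.77-fold higher (log2 fold change 0.83 ± 0.184 SE, 95% interval 0.36 to 1.29, adjusted p = 0.363), but the PBS mean of 3.42 did not lie above background, where the size of a fold is uncertain. FN1, the fibronectin that fills the mesenchyme and is bound by alpha 4 and alpha V integrins, gave 12.75, 12.53 and 13.03 on the FGF2 arrays, against 13.38, 12.78 and 13.05 on the PBS arrays. The groups overlapped only in that FGF2 replicate 3 lay above PBS replicate 2 (log2 fold change -0.30 ± 0.197 SE, adjusted p = 0.644). Without PBS replicate 1 the log2 fold change was -0.14, and without FGF2 replicate 2 it was -0.18. The 6 other FN1 probe sets above background gave -0.22 to 0.07. The thrombospondins, which bind matrix and growth factors, gave log2 fold changes of 0.20 ± 0.0861 (SE; adjusted p = 0.584) for THBS4, a form of tendon and cartilage, 0.07 ± 0.300 for THBS1 and 0.01 ± 0.175 for THBS2. The values of THBS1 and THBS2 differed by far less between groups than between arrays of a group. Their 95% intervals of -0.69 to 0.83 and -0.43 to 0.45 leave changes of either sign possible. Another THBS2 probe set, with a mean of 3.66, lay lower on every FGF2 array (log2 fold change -0.09 ± 0.0332 SE, adjusted p = 0.540 in limma).

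Fibulins are short rod-like glycoproteins of elastic fibers and basement membranes, and their values were split. FBLN5, which binds elastin and integrins and helps to assemble elastic fibers, had the lowest log2 fold change of all members. It gave 8.34, 7.34 and 8.27 on the FGF2 arrays, against 8.76, 9.59 and 8.74 on the PBS arrays. All FGF2 arrays were lower, with replicate 2 of each group standing furthest from the other group, and FBLN5 was 2.07-fold lower (log2 fold change -1.05 ± 0.369 SE, 95% interval -1.98 to -0.12, adjusted p = 0.528). Its other probe set gave -0.88. SOX10 and FOXD3, transcription factors of neural crest and Schwann precursors, were likewise lowest on FGF2 replicate 2 and highest on PBS replicate 2. SOX10 gave 8.14, 7.12 and 8.05 on the FGF2 arrays, against 8.32, 9.07 and 8.25 on the PBS arrays (log2 fold change -0.78 ± 0.362 SE, adjusted p = 0.612). FOXD3 gave 6.89, 6.32 and 6.95 on the FGF2 arrays, against 7.26, 7.65 and 7.17 on the PBS arrays (log2 fold change -0.64 ± 0.215 SE, adjusted p = 0.509). They belong to a list of nerve and Schwann genes, of which 10 of 15 were measured. In it 4 genes were higher and 6 lower. The neuronal gene STMN2 (2.44) and FOXD3 had an unadjusted p under 0.05 in limma, 20% of the list against 12.3% of all genes. NGFR, SNAP25, S100B and NEFL were not above background. The summed level of the list was 2390 to 3299 on the FGF2 arrays and 1633 to 2059 on the PBS arrays. Bright probe sets weigh most in such a sum. STMN2 gave 10.93, 10.80 and 10.09 on the FGF2 arrays, against 8.22, 8.38 and 7.89 on the PBS arrays. The median log2 fold change of the list was -0.04. The muscle markers PAX7, MYF5 and MYOD1, given with ITGA4, were also lowest on FGF2 replicate 2 and highest on PBS replicate 2. No other gene of the 17 measured muscle markers had this pattern. The median level of all 17 on PBS replicate 2 was -0.19, the lowest of the PBS arrays. The part of nerve, Schwann or muscle cells in the FBLN5 value was not tested.

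FBLN2, a fibulin of basement membranes and of forming cartilage and heart valves, gave 11.87, 11.82 and 12.07 on the FGF2 arrays, against 12.39, 12.11 and 12.11 on the PBS arrays. The gap was narrow between FGF2 replicate 3 and PBS replicates 2 and 3, and the log2 fold change was -0.29 ± 0.106 (SE; adjusted p = 0.544), with -0.40 for its other probe set.

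FBLN7 and FBLN1 lay on the other side. FBLN7, a cell-adhesive fibulin of tooth, cartilage and placenta in the mouse, gave 8.82, 8.87 and 9.06 on the FGF2 arrays, against 8.65, 8.19 and 8.48 on the PBS arrays. All FGF2 arrays were higher, and FBLN7 was 1.39-fold higher (log2 fold change 0.47 ± 0.133 SE, 95% interval 0.14 to 0.81, adjusted p = 0.450). FBLN1, an abundant fibulin of embryonic mesenchyme that binds fibronectin, gave 13.58, 14.08 and 14.00 on the FGF2 arrays, against 13.65, 13.11 and 13.48 on the PBS arrays. Replicates 2 and 3 of FGF2 were above all PBS arrays, replicate 1 was not, and the log2 fold change was 0.47 ± 0.192 (SE; adjusted p = 0.570), with 0.45 for its other probe set above background. The fibrillins, which form the microfibrils on which elastic fibers are laid, gave -0.13 for FBN1 and -0.26 for FBN2, or -0.02 and -0.04 without PBS replicate 1. EFEMP1, a further member of the fibulin family, gave -0.12, and the brightest probe sets of all 3 genes overlapped between the groups. Another FBN1 probe set lay lower on every FGF2 array (log2 fold change -0.39 ± 0.205 SE, adjusted p = 0.644 in limma). The remaining FBN1 probe set, also above background, gave 0.04.

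**Figure D2:**
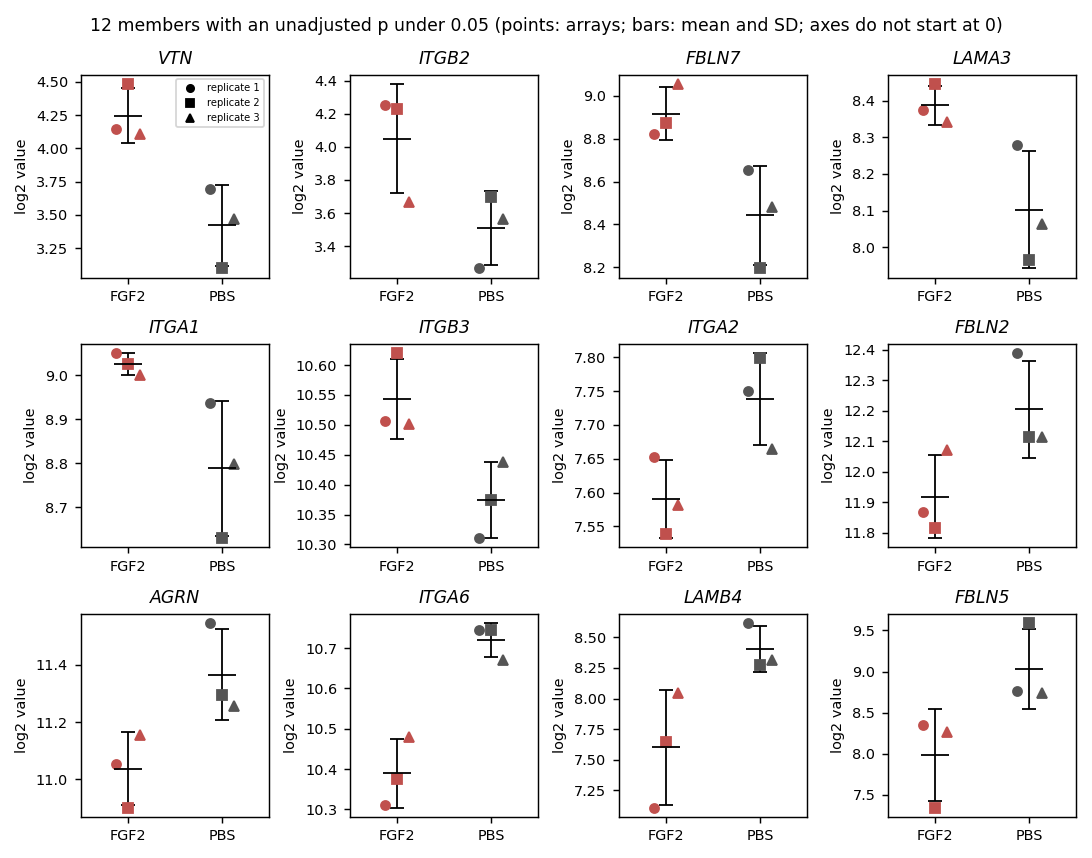
Log2 values of the 12 members with an unadjusted p under 0.05, with FGF2 arrays on the left and PBS arrays on the right of each panel, points for arrays and bars for the mean and SD (3 arrays per group). The groups do not overlap in 11 of the panels, and in that of ITGB2 the third FGF2 array (3.67) lies under the second PBS array (3.70).

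Arrays of a group also differed from each other. Taken as the median over members of the difference from the PBS mean, the laminin chains stood at -0.13, -0.12 and -0.01 on the FGF2 arrays and at 0.18, -0.12 and -0.08 on the PBS arrays. The fibrillins and fibulins stood at -0.01, -0.32 and -0.12 on the FGF2 arrays and at 0.21, -0.10 and -0.09 on the PBS arrays. PBS replicate 1 was thus the highest of all arrays for both roles, and it carried the highest value of any array for FN1, FBN2, LAMA2, LAMB2, HSPG2 and AGRN. The integrin alpha chains, in contrast, stood at -0.002, -0.001 and 0.01 on the PBS arrays and at -0.11, -0.02 and -0.08 on the FGF2 arrays. The adhesive glycoproteins were ordered otherwise, at -0.005, 0.34 and 0.18 on the FGF2 arrays and 0.28, -0.29 and -0.02 on the PBS arrays. Markers of cartilage also had their highest value on PBS replicate 1, with median levels of -0.35, -0.50 and -0.05 on the FGF2 arrays and 0.37, -0.41 and 0.02 on the PBS arrays. Of 15 measured cartilage markers 13 were lower, with 0 at an unadjusted p under 0.05 in limma, where 12.3% of all genes passed. Their summed level was 60981 to 83675 on the FGF2 arrays and 67573 to 108078 on the PBS arrays, with MATN3 not above background. The part of cartilage cells in the member values was not tested. The endothelial list had 4 of 13 genes higher and 9 lower, with ROBO4 and ESAM not above background. In it 1 gene (KDR, 0.55) had an unadjusted p under 0.05 in limma, 7.69% against 12.3% of all genes. The list of erythroid cells and thrombocytes had 3 of 8 genes higher and 5 lower, with 4 of the 8 not above background. Of these 8 genes 0 had an unadjusted p under 0.05 in limma, against 12.3% of all genes. Without PBS replicate 1 the median log2 fold change of all 43 members was -0.05, and 8 of them had an unadjusted p under 0.05 (5 higher and 3 lower), where 9.46% of all genes did.

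**Figure D3:**
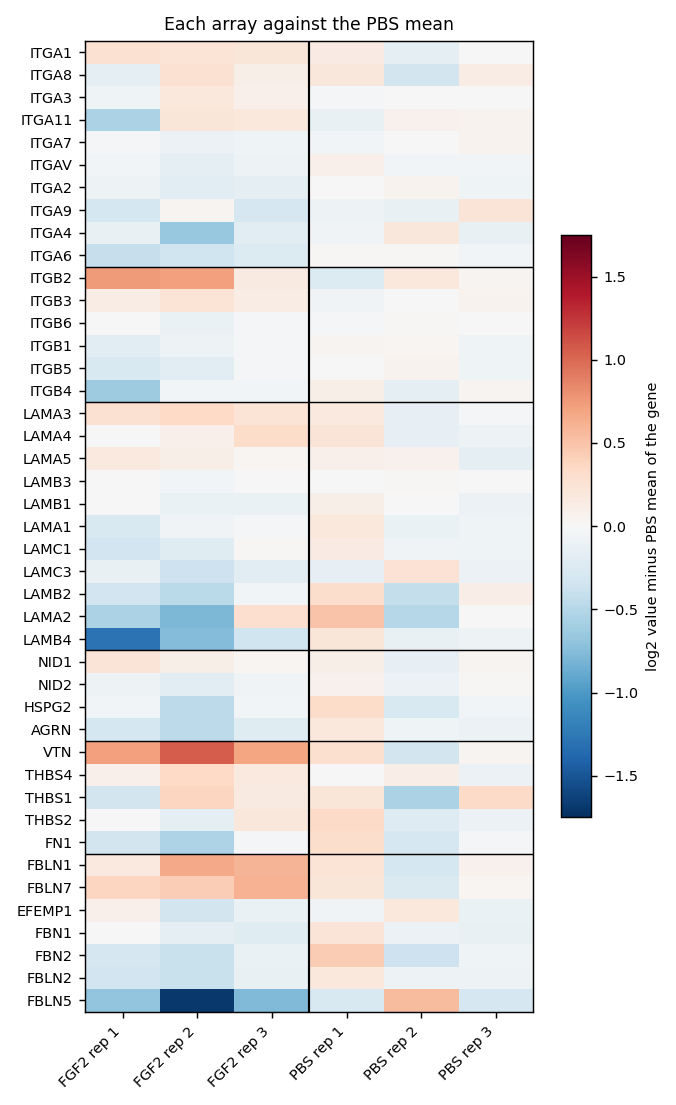
Difference of each array from the PBS mean of the gene (log2, color) for the 43 members in rows, grouped by role, with the 3 FGF2 arrays left of the 3 PBS arrays. Red is higher and blue lower than the PBS mean, and FBLN5 on FGF2 replicate 2 and LAMB4 on FGF2 replicate 1 are the deepest blue cells.

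**Figure D4:**
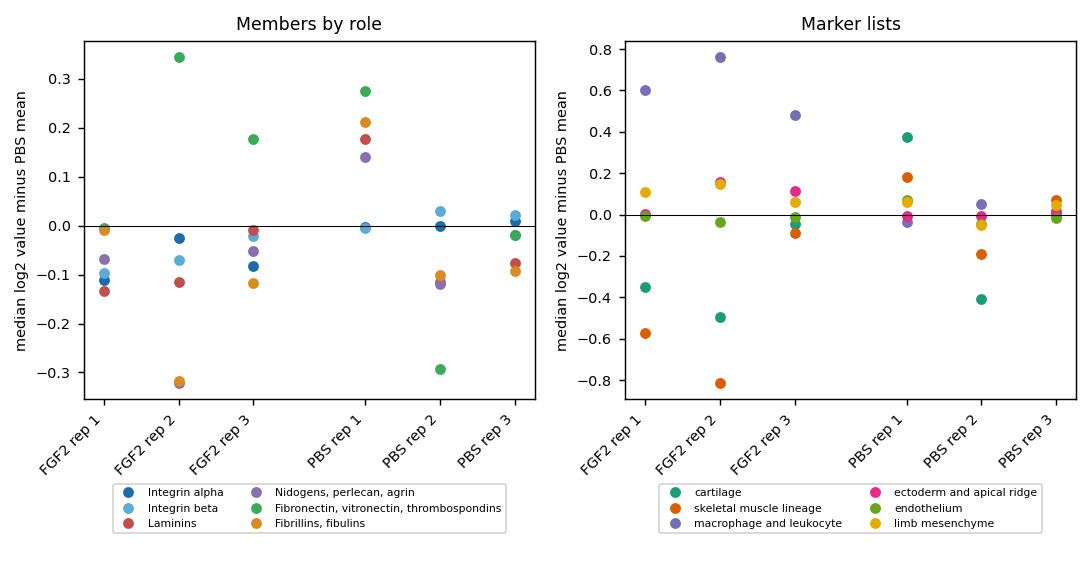
Median over genes of the log2 difference from the PBS mean on each array, for the members by role (left) and for marker lists of cell types (right), with FGF2 arrays left of PBS arrays in each panel and a point per array. Macrophage and leukocyte markers lie at 0.48 to 0.76 on the FGF2 arrays and at -0.03 to 0.05 on the PBS arrays, while the laminin chains span -0.13 to -0.01 and -0.12 to 0.18.

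Most genes could be checked against further probe sets. There were 103 probe sets for the 43 members, and 29 members had more than 1. Of the 60 other probe sets, 40 lay above background, in 22 genes, and 32 of these had the sign of the brightest probe set of their gene while 8 had the opposite sign. Such probe sets read the same RNA on the same arrays and are not independent measurements. For FBLN5, FBLN1, FBLN2 and ITGA6 the second probe set had the same sign, at -0.88, 0.45, -0.40 and -0.18. For LAMB4 the other probe set above background was near 0, though lower on every FGF2 array. For LAMA1 a probe set gave -0.52 where the brightest gave -0.12, while others above background gave 0.02 and -0.07. None of the other probe sets passed an adjusted p of 0.05 in limma, where 0.0104% of all probe sets did. Of the 60, 8 had an unadjusted p under 0.05, all of them lower around FGF2 beads and 7 of them above background, against 8.93% of all probe sets (5.6% higher and 3.33% lower).

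**Figure D5:**
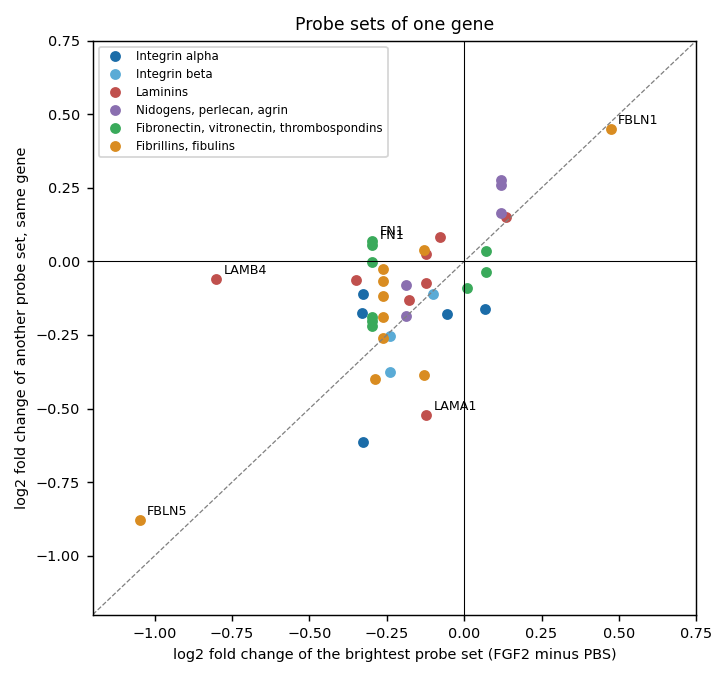
Log2 fold change (FGF2 minus PBS) of the 40 other probe sets above background on the vertical axis, against that of the brightest probe set of the same gene on the horizontal axis, with a dashed line where both are equal. FBLN5 and FBLN1 lie near the line at -1.05 against -0.88 and 0.47 against 0.45, and LAMB4 lies away from it at -0.80 against -0.06.

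Partners of the members were taken from 3 further lists. The proteins that tie integrins to actin and relay their signals were measured for 29 of 33 genes, with 14 higher, 15 lower and a median log2 fold change of -0.01. At an unadjusted p under 0.05 there were 5 higher and 0 lower in limma (17.2% of the list, against 12.3% of all genes, 7.76% higher and 4.58% lower), and none passed the adjusted threshold. CD9, a tetraspanin that associates with integrins, gave 0.96 ± 0.133 (SE; adjusted p = 0.228), with a mean of 6.93 ± 0.202 in FGF2 tissue and 5.96 ± 0.170 in PBS tissue (SD, n = 3). PARVA, a parvin of the complex with integrin-linked kinase, gave 0.31, the kindlin FERMT1 0.21 and the talin TLN2 0.20. The fifth, the tensin TNS3, gave 0.23 and was named after its values were seen.

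Of the partners in the basement membrane 10 were higher and 19 lower (65.5% lower, against 54.5% of all genes). Of 29 measured genes of 34 listed, 2 stood higher and 7 stood lower by an unadjusted p under 0.05 (6.9% and 24.1%, against 7.76% and 4.58% of all genes), at a median of -0.06, and no gene passed the adjusted threshold. COL18A1, a collagen of basement membranes, gave -0.21 ± 0.0462 (SE; adjusted p = 0.363), DAG1, the dystroglycan that binds laminin and agrin at the cell surface, -0.21 ± 0.0595 (SE; adjusted p = 0.447), and SMOC2, a matricellular protein, -0.63 ± 0.190 (SE; adjusted p = 0.464). NTN4, a laminin-related netrin that binds laminin chains, was the largest on the higher side at 0.96 ± 0.238 (SE; adjusted p = 0.388). Its FGF2 mean was 6.72 ± 0.350 and its PBS mean 5.76 ± 0.322 (SD, n = 3). Of 28 measured microfibril, elastic fiber and other matrix genes of 36 listed, 4 were lower and 0 higher in limma at an unadjusted p under 0.05 (14.3%, against 12.3% of all genes in either direction and 4.58% lower), with a median of -0.03. These were LOXL1, a cross-linking enzyme of elastin, at -0.16, EMILIN3, a glycoprotein of the elastic fiber family, at -0.37, the microfibril-associated protein ADAMTSL1 at -0.87 and tenascin C (TNC), a matrix glycoprotein of tendon and cartilage precursors, at -0.98.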

How the data were processed

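The deposited table holds log2 values of 6 single-color Affymetrix chicken arrays, made by the authors with Robust Multi-array Averaging (RMA). Its log base, taken from a range of 0.128 to 15.95, and the RMA version are not given in the sources used here, and no scanner file was analysed. According to the methods the experiment was repeated on separate days. The p-values thus rest on how far arrays of a group differ, in which pools of embryos and days cannot be told apart, and not on single embryos. After 96 control probe sets were left out, lmFit and eBayes (limma 3.58.1, R 4.3.3) compared FGF2 with PBS on 38439 probe sets, without a filter or another normalization, and two-sided p-values were adjusted over them by Benjamini-Hochberg. The number of arrays limits the precision. Background came from 746 probe sets not named as chicken transcripts. Values per array are given for members with an unadjusted p under 0.05 or with groups that do not overlap, and for the 2 members of each role with the largest absolute change. Of each partner list up to 4 genes with the smallest p are named. Members, lists and rules were chosen with earlier results of these data known. In a simulation of 38439 probe sets with 200 changed, limma found 68 of 100 at 2-fold and 95 of 100 at 4-fold, and made 13 false calls. The changed probe sets all had means above the median of 4.767, and noise was drawn independently, without shifts shared by an array. These rates therefore do not describe dimmer members such as VTN and ITGB2, or changes under 2-fold. They need not hold for bright genes of these arrays either, where MSX1 was 4.35-fold higher at an adjusted p of 0.068 in limma. Counts of members past a threshold, medians and log2 fold changes of the members were also computed with replicate number as a block, leaving out each array, after quantile normalization or median centring, without dim or multiply matching probe sets, with a variance trend, with array weights and with probe sets averaged per gene. Marker lists, partner lists, overlap counts, summed levels and the comparison of probe sets were computed only in the main fit or from the deposited values.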

Additional observations from a re-analysis of the deposited data

How the results depend on the processing

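No member passed an adjusted p of 0.05 in 13 of the 14 alternatives. With array weights, whose estimation did not converge, 3 passed, FBLN7 (0.52), ITGA6 (-0.23) and VTN (0.61), where 2256 probe sets passed in all. The count at an unadjusted p under 0.05 was 4 to 13 with each array left out, where 7.18% to 14.1% of all genes passed. The median log2 fold change of the members stayed within -0.12 to -0.04 under all 14. Deviations of same-numbered arrays correlated at -0.25, -0.002 and -0.18, and no array correlated best with its own number. The best match was 0.33, for FGF2 replicate 3 with PBS replicate 1. Next came 0.21 for FGF2 replicate 1 with PBS replicate 2 and 0.17 for FGF2 replicate 2 with PBS replicate 3. Deviations were taken from group means, so they offset each other within a group and some positive match was bound to appear. The matches therefore do not show which arrays share a day. The sources do not say which arrays share a day, so a replicate block may not follow days. With a replicate block 0 members passed an adjusted p of 0.05 and 10 an unadjusted p under 0.05 (7 higher and 3 lower, where 11.6% of all genes passed), with a median of -0.10. Of the 43 members 33 kept their sign under every alternative that measured them. With each array left out, log2 fold changes ran from -0.19 to 0.20 for ITGA11, -0.092 to 0.18 for ITGA8, -0.21 to 0.26 for THBS1 and -0.11 to 0.18 for THBS2. Signs also turned after quantile normalization again (LAMB3 0.016, THBS2 -0.053), with array weights (ITGA11 0.17, ITGA8 -0.014, ITGB1 0.0025, LAMA2 0.059, NID1 -0.012, THBS1 -0.079), without the multiply matching probe sets (LAMA1 0.025, THBS2 -0.090) and with probe sets averaged per gene (ITGA8 -0.046, LAMB1 0.0033, THBS2 -0.041), and the cause was not tested. Without the dim probe sets, ITGB2, ITGB6, LAMB3, LAMC3 and VTN had no value, and LAMA3, NID2 and THBS4 had none without multiply matching probe sets, those that can match several transcripts. Levels near background, as of VTN and ITGB2, limit what their folds mean.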
